A study of Mus musculus with 2 samples.

Results

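Interferon-stimulated and antigen-processing genes were examined in a mouse macrophage-like line, RAW264.7, given ligands for the liver X receptor and its partner. A list of 42 genes was taken by symbol, and 39 of them had at least 1 probe set annotated to that symbol alone, among 18193 such genes on the array. Isg15, Oas1g and Ifi44 had none and are not analysed here as genes of the list. Both cultures stably expressed murine LXRα (gene Nr1h3) after chemical transfection, so the introduced receptor was present in the control as well, and the labels do not say whether the line is a single clone. The control group was 1 array from cells kept for 24 h with DMSO. The treated group was 1 array from cells kept for 24 h with the LXR agonist GW3965 at 1 µM together with the RXR agonist LG268 at 100 nM. Neither ligand was given alone, and there was no array without the introduced receptor and none from cells given interferon. With 1 array per group there are no replicates, so no p-value or standard error was computed, and "higher" and "lower" below compare these 2 arrays.

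Type I interferons bind a receptor whose kinases phosphorylate STAT proteins, among them STAT2. These join IRF9 and bind the interferon-stimulated response element in front of antiviral genes, while interferon-γ acts through a different site. Macrophages keep part of this programme active without infection and raise it strongly when they sense viral nucleic acid. Antigen processing is tied to it, because interferons also raise the immunoproteasome, which cuts proteins into peptides, and the TAP transporter, which carries peptides to class I molecules. LXR activation is known for turning on sterol export and for dampening parts of the inflammatory response in macrophages, and the comparison of the ligands with DMSO shows how these genes stood beside that.

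Promoter windows show what the listed genes share by sequence. RefSeq windows on GRCm38.p6, each from 250 bases before to 50 bases after the annotated start, were found for 33 of the 42 genes, and Mx1, Mx2, Oas2, Dhx58, Usp18, Parp9, Parp14, Iigp1 and Tap2 had no entry. In all, 3 motifs were searched on both strands, with overlaps allowed. The core of the interferon-stimulated response element, read as GAAA, any 2 bases and GAAA again, lay in a window of 18 of the 33 genes (54.5%), against 3.99% of 27025 genes with a window and 3.44% of all 32851 windows. The STAT site TTCNNNGAA lay in a window of 10 of the 33 (30.3%), against 9.55% of genes. The LXR and RXR direct repeat, 2 copies of AGGTCA with 4 bases between them, lay in none of the 33 and in 4 of the 27025 genes. An exact match so rare could hardly be met in 33 genes, so this search cannot show whether they lack LXR sites. A match is a run of letters and not a shown binding site. The windows below are printed 5′ to 3′ on the strand of the gene, with matches to the first 2 motifs in capitals. They were picked to set 2 genes with the response element, Ifit1 (below the signal floor on both arrays) and Oas1a (above it on both), beside others. By brightest probe sets, these are the antiviral effector with the highest ratio (Bst2) and the gene with the lowest ratio of the list (Ifi47). The last is the stretch that lies between Tap1 and Psmb9. Their positions are chr19:34640639-34640938 on the plus strand for Ifit1, chr5:120907476-120907775 on the minus strand for Oas1a, chr8:71537423-71537722 on the minus strand for Bst2, chr11:49076337-49076636 on the plus strand for Ifi47 and chr17:34187306-34187605 on the plus strand for Tap1.
Ifit1: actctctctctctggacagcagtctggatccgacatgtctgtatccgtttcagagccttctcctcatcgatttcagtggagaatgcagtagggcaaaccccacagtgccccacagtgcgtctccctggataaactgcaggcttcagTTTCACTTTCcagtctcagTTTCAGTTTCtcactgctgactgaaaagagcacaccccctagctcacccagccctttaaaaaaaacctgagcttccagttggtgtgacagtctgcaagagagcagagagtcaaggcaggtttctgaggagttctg
Oas1a: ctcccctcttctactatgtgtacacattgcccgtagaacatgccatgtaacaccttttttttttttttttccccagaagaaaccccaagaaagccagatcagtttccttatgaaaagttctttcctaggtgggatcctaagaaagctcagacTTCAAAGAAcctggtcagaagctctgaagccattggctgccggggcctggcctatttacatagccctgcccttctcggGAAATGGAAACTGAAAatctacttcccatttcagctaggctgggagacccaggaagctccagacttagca
Bst2: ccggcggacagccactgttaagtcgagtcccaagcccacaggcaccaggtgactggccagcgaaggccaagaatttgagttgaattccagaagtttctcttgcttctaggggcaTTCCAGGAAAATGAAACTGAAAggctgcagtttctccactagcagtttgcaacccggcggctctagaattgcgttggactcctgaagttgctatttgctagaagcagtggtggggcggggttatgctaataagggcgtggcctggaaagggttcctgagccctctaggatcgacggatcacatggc
Ifi47: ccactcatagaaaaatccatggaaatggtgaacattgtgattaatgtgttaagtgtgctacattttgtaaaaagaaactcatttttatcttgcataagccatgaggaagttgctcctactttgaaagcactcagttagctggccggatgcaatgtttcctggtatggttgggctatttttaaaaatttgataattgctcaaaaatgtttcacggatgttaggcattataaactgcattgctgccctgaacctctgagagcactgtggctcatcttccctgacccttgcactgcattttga
Tap1: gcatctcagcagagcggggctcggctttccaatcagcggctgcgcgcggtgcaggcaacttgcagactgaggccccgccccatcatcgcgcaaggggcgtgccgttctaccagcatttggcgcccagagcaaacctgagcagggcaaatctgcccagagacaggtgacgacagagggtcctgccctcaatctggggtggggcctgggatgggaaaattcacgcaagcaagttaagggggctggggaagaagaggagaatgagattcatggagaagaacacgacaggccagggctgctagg

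In the Ifit1 window, 2 matches to the response element began at positions -104 and -85 from the start site, both read on the opposite strand. In Oas1a, 2 overlapping matches began at -20 and -14, and a STAT site match at -98. In Bst2, 2 overlapping matches began at -130 and -124, and a STAT site match that overlaps the first began at -136. The windows of Ifi47 and Tap1 held neither motif. Psmb9 is read from the other strand of the Tap1 region, with 226 bases between the 2 start sites and 275 bases shared by their windows.

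The table holds 1 MAS5 signal per probe set and array, and the number of arrays limits the precision. A floor was set at the median signal of all probe sets with 1 symbol, 406.5, lower signals were raised to it before ratios were taken, and a gene was measured if its brightest probe set exceeded it on at least 1 array. That held for 9857 genes, whose median log2 ratio (ligands over DMSO) was -0.03. The only error that these files allow is the disagreement between probe sets of a gene, an SD of 0.26 on the log2 scale over 4480 genes. It leaves out errors that the probe sets of an array share and how cultures differ. It may also hold differences between the transcripts that the probe sets detect. All 8 macrophage markers were above the floor on both arrays, with signals summing to 481336 with DMSO and 529661 with the ligands. Of these, 4 had positive and 4 negative ratios, and Mpeg1, at 22120 and 45001, was 2.03-fold higher. All 4 fibroblast and all 3 T and B cell markers on the array were below it. Of the dendritic cell markers, 2 of 4 plasmacytoid ones (Tcf4 and Klk1, with the defining Siglech below the floor) and 1 of 4 conventional ones (Zbtb46, above it on the ligand array alone) were measured. Their summed signals were 9313 and 9577 for the plasmacytoid list, and 823 and 811 for the conventional list, and their part in the results was not tested. Klk1 had 2323 with DMSO and 1247 with the ligands, from a probe set of the _x_at kind.

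Of the 39 genes with a probe set, 30 were above the floor on both arrays and 9 were below it on both. Over all 18193 genes, 9232 were above it on both arrays and 8336 below it on both. Keeping a side of the floor was thus common to most genes of the array and not particular to the list. Across the 30, the ligand array stood close to the DMSO array. In such bulk RNA, fewer expressing cells and less RNA per cell cannot be told apart, nor can treatment and array, since each treatment has its own array. The log2 ratios of the 30 genes ran from -0.74 to 0.75 with a median of 0.13, against -0.03 over all measured genes. No gene was 2-fold apart by its brightest probe set, where 1.59% of all measured genes were higher and 0.517% lower by that much. At 1.5-fold, Dhx58 and Psmb9 were higher and Ifi47 lower. These 2 of 30 higher (6.67%) and 1 of 30 lower (3.33%) stand against 5.50% higher and 3.80% lower over all measured genes, so the shares were near the background. Of the 30, 22 had a positive and 8 a negative ratio, or 73.3% positive against 46.1% of all measured genes. Most of these ratios were small, since 19 of 30 (63.3%) lay within 1 probe set SD of 0, as did 62.9% of all measured genes. With quantile normalization 19 of 30 were positive, and with ratios centred on the median of all genes 23 of 30.

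**Figure D1:**
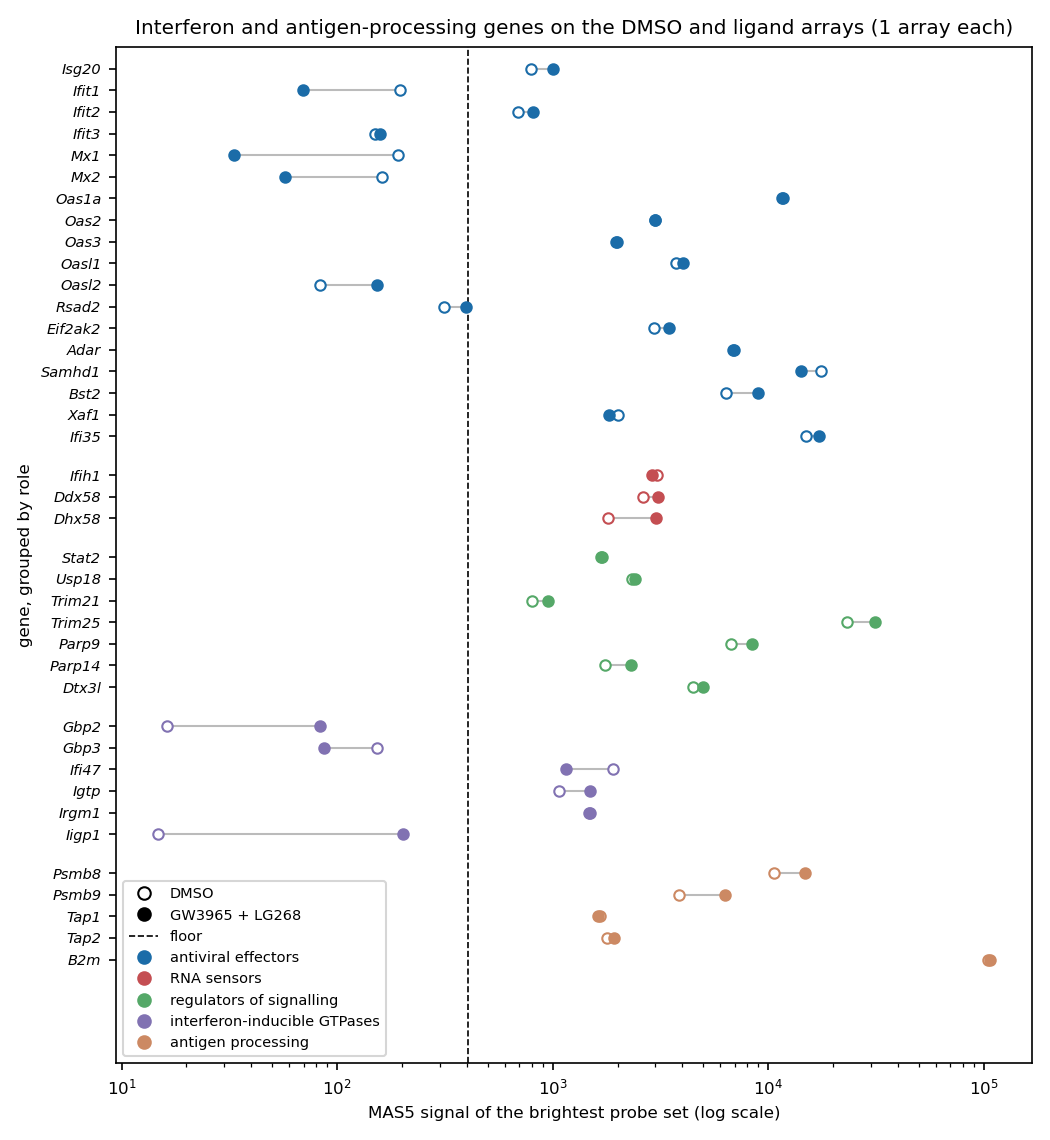
MAS5 signal of the brightest probe set of each of 39 genes on the DMSO array (open circles) and the ligand array (filled circles), on a log axis, coloured by role, with the floor of 406.5 as a dashed line. The 30 genes to the right of the line were above it on both arrays and the 9 to the left below it on both, and for most of the 30 the circles nearly coincide.

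Among the antiviral effectors, 12 of 18 genes on the array were measured, with a median log2 ratio of 0.07, a range from -0.31 to 0.50, and none 1.5-fold apart in either direction. The oligoadenylate synthetases, which make a small antiviral messenger when they bind double-stranded RNA, differed little. Oas1a had 11537 with DMSO and 11730 with both ligands (log2 ratio 0.02), Oas2 had 2974 and 2971 (-0.0013), and Oas3 had 1994 and 1957 (-0.03). The 3 genes thus kept their signals on both arrays to well within the probe set SD. Oasl1, a synthetase-like protein, had 3723 and 4010 (0.11). Oas1a has close relatives in the mouse genome, so its probe set may also detect other copies.

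Bst2, which encodes tetherin, a membrane protein that holds budding virus on the cell, had the highest ratio of the effectors by brightest probe sets, although Ifi35 was higher with probe sets averaged (0.52 against 0.50 on the log2 scale). It gave 6394 with DMSO and 9017 with the ligands, 1.41-fold higher, from a single probe set. Isg20, an exonuclease that degrades RNA, had 796 and 999 (log2 ratio 0.33), and Ifit2, an RNA-binding tetratricopeptide protein, had 693 and 811 (0.23). Samhd1, which hydrolyses deoxynucleotides, went the other way, with 17582 and 14183 (-0.31). Xaf1, a pro-apoptotic binding partner of XIAP, had 2008 and 1833 (-0.13).

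Several effectors had more than 1 probe set, and in some of them these differed widely. The 5 probe sets of Samhd1 ranged from -1.07 to 0.30, and the lowest of them came from a probe set whose name ends in _x_at, which can detect other transcripts. Eif2ak2, the double-stranded RNA kinase PKR that stops translation, had 2937 and 3476 by its brightest probe set (0.24), and its 3 probe sets ranged from -0.02 to 0.48. Adar, which edits adenosines in double-stranded RNA, had 6957 and 6834 (-0.03), and its 3 probe sets lay between -0.16 and -0.03. Ifi35, an interferon-induced leucine zipper protein, had 15050.4 and 17235 by its brightest probe set (0.20), which is of the _s_at kind. Its other probe sets gave 3629 and 5505 (0.60) and 1739 and 2977 (0.78), so Ifi35 passed 1.5-fold by those and not by the brightest. In all, 11 of the 30 measured genes had at least 2 probe sets that exceeded the floor on both arrays, and in 7 of these all such probe sets had the same sign.

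**Figure D2:**
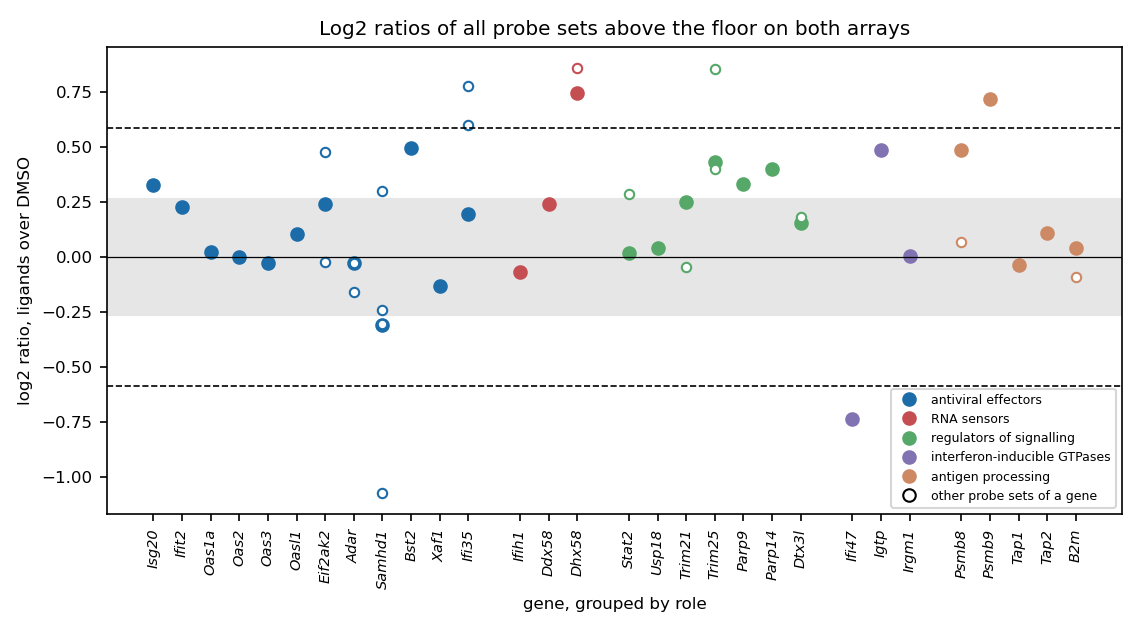
Log2 ratio (ligands over DMSO) of each of 48 probe sets that exceeded the floor on both arrays, for 30 genes grouped by role. Filled circles are the brightest probe set of a gene, open circles its others, the grey band spans 1 probe set SD (0.26) either side of 0 and dashed lines mark 1.5-fold. Dhx58 and Psmb9 lie above the upper line and Ifi47 below the lower by their brightest probe sets, and Samhd1 has the widest spread.

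The remaining 6 effectors with a probe set were below the floor on both arrays, so no ratio was taken for them. They include genes often used as readouts of an interferon response. Ifit1 had signals of 195 with DMSO and 69.6 with the ligands, Ifit3 had 150.04 and 158, and Rsad2, which encodes the radical SAM enzyme viperin, had 312 and 396. The dynamin-like GTPases Mx1 and Mx2 had 191 and 33.1, and 162 and 57.4, and Oasl2 had 82.9 and 153. Over all 9 genes below the floor, signals ran from 14.7 to 312 with DMSO and from 33.1 to 396 with the ligands. The bacterial spike-in control Trpn, which is absent from mouse RNA, reached 137 and 115 on the same arrays, and 3 of the 9 genes on the DMSO array and 5 of the 9 on the ligand array lay at or below it. Differences between such signals were not read in either direction.

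The 3 cytosolic RNA sensors were all above the floor. Dhx58, which encodes LGP2, a helicase that binds viral RNA and modulates signalling by the other sensors, had the highest ratio of the whole list. Its brightest probe set had 1805 with DMSO and 3027 with the ligands, 1.68-fold higher, and a second one had 549 and 994, 1.81-fold higher. Its last was below the floor on both arrays. Ddx58, which encodes RIG-I, had 2613 and 3092 (log2 ratio 0.24), and Ifih1, which encodes MDA5, had 3040 and 2898 (-0.07). The sensors therefore had log2 ratios on both sides of 0, and Dhx58 alone lay beyond 2 probe set SDs (0.53) among them.

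The 7 regulators of signalling were all measured and all had positive ratios, against 46.1% of all measured genes. Their median log2 ratio was 0.25 with a range from 0.02 to 0.43, and none was 1.5-fold apart. Of the 7, 4 lay within 1 probe set SD of 0. Trim25, the ubiquitin ligase that acts on RIG-I, had 23096 with DMSO and 31191 with the ligands, 1.35-fold higher, and its other probe sets had log2 ratios of 0.40 and 0.85. Parp14, an ADP-ribosyltransferase, had 1749 and 2308 (0.40). Parp9, another member of that family, had 6690 and 8432 (0.33), and its partner, the ubiquitin ligase Dtx3l, had 4492 and 4999 (0.15). Parp14, Dtx3l and Parp9 are consecutive protein-coding genes on chromosome 16 of the RefSeq annotation. All 3 had positive ratios, that of Dtx3l within 1 probe set SD of 0.

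The other 3 regulators lay between 0.02 and 0.25 on the log2 scale. Stat2, which carries the type I signal to the nucleus, had 1668 with DMSO and 1690 with the ligands (log2 ratio 0.02), with its second probe set at 0.29. Usp18, which removes ISG15 from proteins and blocks the type I receptor, had 2338 and 2409 (0.04). Trim21, a cytosolic antibody receptor and ubiquitin ligase, had 803 and 954 (0.25), but its second probe set was at -0.04. All 3 lay within 1 probe set SD of 0 by their brightest probe sets.

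The interferon-inducible GTPases, which attack the vacuoles of intracellular pathogens, had ratios on both sides of 0. Of 6, only Ifi47, Igtp and Irgm1 were measured, each with a single probe set. Ifi47 had 1913 with DMSO and 1149 with the ligands, 1.66-fold lower, the lowest ratio of the list by brightest probe sets. Igtp went the other way, with 1068 and 1498, 1.40-fold higher, and Irgm1, a regulator of the other GTPases, had 1479 and 1483 (log2 ratio 0.0046). Gbp2, Gbp3 and Iigp1 were below the floor on both arrays, with signals of 16.2 and 83.1, 153 and 86.7, and 14.7 and 203. Members of these families resemble each other in sequence, so a probe set may detect more than its named gene.

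All 5 antigen-processing genes were measured, and Psmb9 alone was 1.5-fold apart. Psmb9, the inducible subunit LMP2, had 3849 with DMSO and 6332 with the ligands, 1.65-fold higher, from a single probe set. Psmb8, the inducible subunit LMP7, had 10609 and 14872, 1.40-fold higher, with a second probe set of the _x_at kind giving 468 and 492 (log2 ratio 0.07). Tap1 and Tap2, which form the transporter, had 1666 and 1623 (log2 ratio -0.04) and 1778 and 1918 (0.11). B2m, the shared light chain of class I molecules, had 104203 and 107368 (0.04), with its second probe set at -0.09. Psmb9, Tap1, Psmb8 and Tap2 follow each other along chromosome 17. By brightest probe sets their log2 ratios of 0.72, -0.04, 0.49 and 0.11 alternated along it. With the second probe set of Psmb8, at 0.07 and below Tap2, they did not. Psmb9 and Tap1 are the pair with divergent starts in the window printed above. Their ratios differed by more than 2 probe set SDs, but that SD is for 1 ratio and understates the spread of a difference. Of the 4 probe sets of Tap1, 1 exceeded the floor on both arrays.

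**Figure D3:**
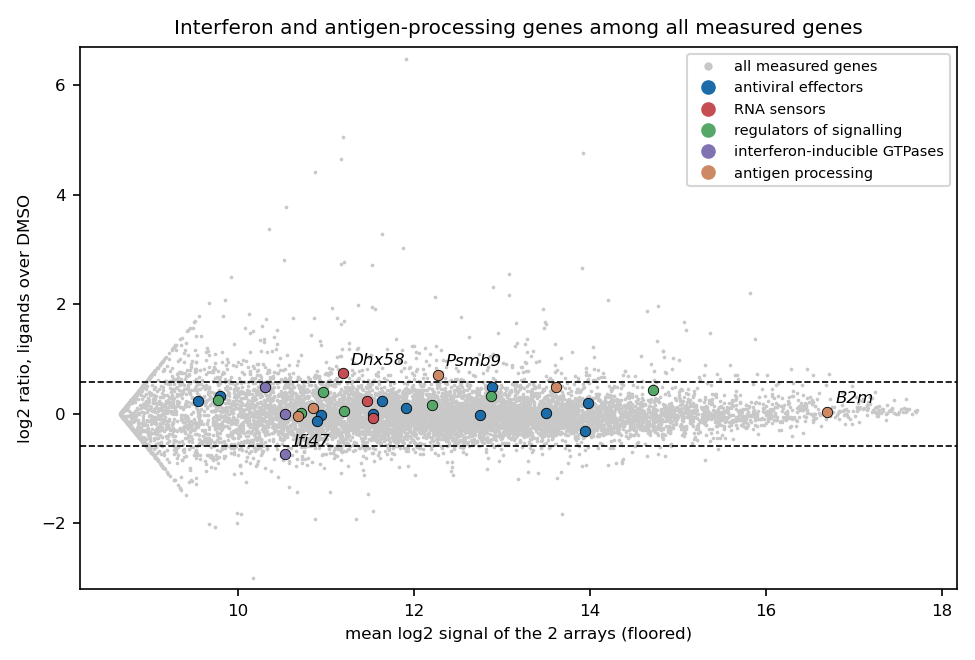
Log2 ratio (ligands over DMSO) against the mean floored log2 signal for 9857 measured genes (grey) and the 30 measured interferon and antigen-processing genes (coloured by role), with dashed lines at 1.5-fold. The coloured points lie in the central band, with Dhx58 and Psmb9 just above it and Ifi47 just below.

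Median ratios were close to 0 for listed genes with the response element in their promoter window and for those without it. Of the 18 with such a match, 2 had no probe set, 5 were below the floor on both arrays and 11 were measured, with a median log2 ratio of 0.04 and a range from -0.07 to 0.50. Of the 15 with a window and no match, 13 were measured, with a median of 0.15 and a range from -0.74 to 0.72. Over all measured genes the medians were 0.01 for 290 genes with a match and -0.03 for 7826 without. Beside these, 234 genes with a match and 6102 without were below the floor on both arrays. Ifit1, Ifit3, Rsad2, Gbp2 and Gbp3, all with a match, were the 5 below the floor, while Oas1a and Bst2, also with a match, were above it on both arrays. These are descriptions of 2 arrays and were not tested.

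A further list of 46 genes covered the rest of the pathway: the interferons and their receptors, kinases and feedback, partners in nucleic acid sensing, and the other parts of antigen presentation. Of these, 43 had a probe set of 1 symbol and 33 were measured, with a median log2 ratio of 0.17. None was 2-fold apart, 10 of 33 (30.3%) passed 1.5-fold upwards and none downwards, against 5.50% and 3.80% of all measured genes. The list was drawn up with earlier results of these data known, so these shares only describe it. With quantile normalization 9 of 33 passed 1.5-fold upwards and 1 downwards, against 5.41% and 3.87% of all measured genes. With each gene's probe sets averaged, 6 of 33 passed it upwards, against 5.25% of all measured genes. H2-T23, Psme2 and H2-DMb1 had no probe set of 1 symbol.

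No interferon gene on the list was measured. Ifnb1 had 292 with DMSO and 205 with the ligands, Ifna4 had 12.7 and 110.2, Ifna2 had 17.5 and 33.2, and Ifng had 13.5 and 11.5. Their receptors and kinases were all above the floor, with positive ratios by brightest probe sets (7 of 7, against 46.1% of all measured genes). The median log2 ratio of the 7 was 0.23, and 4 of them lay within 1 probe set SD of 0. Ifngr2, Ifnar1 and Jak1 each also had a probe set with a negative ratio. Ifngr1, the ligand-binding chain of the interferon-γ receptor, had 3467 and 6830, 1.97-fold higher, the largest difference of both lists by brightest probe sets. Ifngr2, its partner chain, had 3933 and 6288 (1.60-fold higher), but its second probe set was at -0.04 on the log2 scale. Of the type I receptor chains, Ifnar1 had 4203 and 4558 (0.12) with its second probe set at -0.05. Ifnar2 had 12750 and 14997 (0.23) with other probe sets at 0.19 and 0.51. With probe sets averaged, Ifngr2 and Ifnar2 had log2 ratios of 0.32 and 0.31. The kinase Tyk2 had 3704 and 4811 (0.38). The kinase Jak1 had a log2 ratio of 0.05 by its brightest probe set, with others at -0.06 and 0.54. Whether the 2 receptor types differed in their response was not tested.

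Downstream of the receptors, Irf9, which pairs with STAT2, had 2526 with DMSO and 2728 with the ligands (log2 ratio 0.11). Socs3, a feedback inhibitor of cytokine receptors, had 2189 and 1460 by its brightest probe set (-0.58), while its other probe sets were at 0.40 and 0.50, so its direction depended on the probe set. The phosphatase Ptpn2 had 19674 and 17653 (-0.16), and its probe sets ranged from -0.16 to 0.16. Socs1 was below the floor on both arrays.

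Partners in nucleic acid sensing held 4 of the 10 higher genes. Ikbke, a kinase that activates interferon regulatory factors, had 2959 with DMSO and 5257 with the ligands, 1.78-fold higher. Sting1, the adaptor of cytosolic DNA sensing, had 3903 and 6652, 1.70-fold higher, and its second probe set was at 0.55 on the log2 scale. Aim2, which senses DNA and forms an inflammasome, had 770 and 1231 (1.60-fold higher), and Mavs, the mitochondrial adaptor of the RNA sensors, had 4033 and 6223 (1.54-fold higher), while its other probe set had a log2 ratio of 0.40. Cgas, the DNA sensor that makes the messenger for STING, went the other way, with 7883 and 5897 (-0.42) and a second probe set at -0.32. Tbk1, the kinase shared by these routes, had 12728 and 11939 (-0.09) with a second probe set at -0.37, and Zbp1 was below the floor on both arrays.

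Among the class I loading partners, Tapbp, which encodes tapasin and bridges class I molecules to the transporter, had 23504 with DMSO and 41283 with the ligands, 1.76-fold higher, and its second probe set was at 0.78 on the log2 scale. Canx, a chaperone of new class I chains, had 42181 and 65541 (1.55-fold higher), with other probe sets at 0.94 and -0.44. H2-K1, a classical class I heavy chain, had 40148 and 65387 (1.63-fold higher), but its 4 probe sets spanned -0.09 to 0.96 and are all of the _x_at kind, which can detect other class I genes. H2-D1 had 50312 and 53411 (0.09), and its 7 probe sets above the floor lay between -0.24 and 0.09. Nlrc5, the transactivator of class I genes, had 959 and 676 (-0.50), and Calr, another chaperone, had 83318 and 78793 (-0.08).

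Among the proteasome genes of this further list, Psmb10 alone was 1.5-fold apart. Psmb10, the remaining inducible catalytic subunit, had 7174 with DMSO and 11982 with the ligands, 1.67-fold higher, so the inducible subunits Psmb9, Psmb10 and Psmb8 had log2 ratios of 0.72, 0.74 and 0.49. The constitutive subunits that they replace had 0.23 for Psmb6 (31446 and 37000.0), -0.03 for Psmb7 (77741 and 76337) and 0.06 for Psmb5 (42114 and 43965). By brightest probe sets the 3 inducible subunits lay above the 3 constitutive ones, but the second probe set of Psmb8, at 0.07, lay below Psmb6. Psme1, a subunit of the proteasome activator PA28, had 24415 and 28476 (0.22).

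Class II presentation was mostly not measured. Ciita, the class II transactivator, and H2-Aa, H2-Ab1 and H2-Eb1, the class II chains, were below the floor on both arrays by all of their probe sets. Cd74, the invariant chain, had 43914 with DMSO and 41309 with the ligands (log2 ratio -0.09), and H2-DMa, which helps load peptides on class II molecules, had 1961 and 1595 (-0.30).

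**Figure D4:**
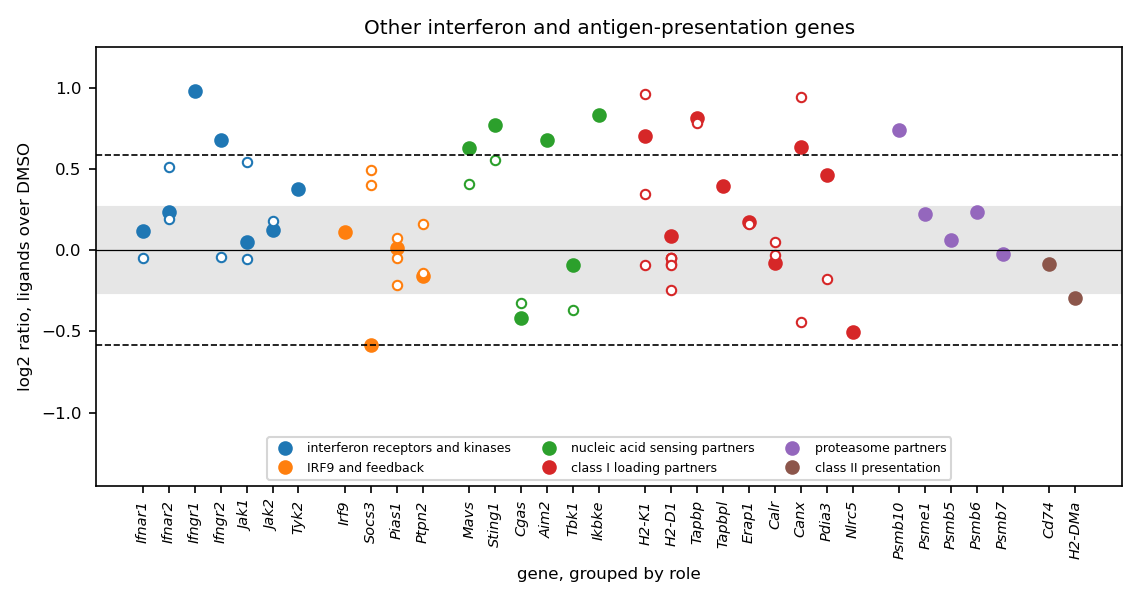
Log2 ratio (ligands over DMSO) of 33 further interferon and antigen-presentation genes grouped by role, with filled circles for the brightest probe set of a gene, open circles for its other measured probe sets, the grey band for 1 probe set SD (0.26) either side of 0 and dashed lines at 1.5-fold. Filled circles of 10 genes lie above the upper line, from Mavs at 0.63 to Ifngr1 at 0.98, and Socs3 at -0.58 lies just inside the lower one.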

How the data were processed

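RNA of 2 cultures was measured on 1 Affymetrix mouse array each, per the series' design text. The deposited intensities are linear signals, 1 per probe set, and MAS5 produced them, per the submitters' processing notes, with no version named. Their trimmed mean (2% from each end) was 2500 on both arrays, so ratios are relative to the array as a whole. Detection calls were not used here.

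Of 45101 probe sets, 34945 had 1 gene symbol in the platform annotation, 932 had several, 9160 had none and 64 were controls. Symbols of 34741 were updated by gene identifier through RefSeq (GRCm38.p6). Each gene takes the values of its brightest probe set by mean log2 signal. Named with values were genes at least 1.5-fold apart, up to 5 per role of the list, those with several probe sets, and up to 3 per role of the wider list. Some genes of the wider list are not reported here. Others quoted with values were chosen after these were seen.

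Genes and lists were chosen with earlier results of these data known. With 1 array per group no test was possible. The ratio procedure was tested on simulated data without noise, with bright genes changed by known folds, which checks the arithmetic alone. Also tried were floors at percentiles 25 and 75 and at the median of all probe sets but controls (276.4), log2(signal + 32) with no floor, quantile normalization, median centring, averaged probe sets, no _s_at, _x_at or _a_at probe sets, genes above the floor on both arrays, and a 2-fold threshold. Python 3.11.15, numpy 2.4.6, pandas 2.3.3 and matplotlib 3.10.9 were used.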

Additional observations from a re-analysis of the deposited data

How the results depend on the processing

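The median log2 ratio of the listed genes, 0.13, lay between 0.11 and 0.16 under the alternatives, and that of the wider list, 0.17, between 0.12 and 0.23. The number of listed genes at least 1.5-fold apart, 3, was 9 of 38 with the floor at the 25th percentile, 10 of 39 with no floor and 1 of 15 with the floor at the 75th percentile, where 28.2%, 31.7% and 4.74% of all measured genes were 1.5-fold apart. The genes added by a lower floor or none were among those with signals below 406.5 on both arrays. At a threshold of 2-fold the number was 0 of 30, against 2.11% of all measured genes. It was 4 of 25 (16%) without _s_at, _x_at and _a_at probe sets, Ifi35 being the addition, against 10.3% of all measured genes. The floor at the median of all probe sets but controls was chosen after seeing the data and again gave Dhx58, Psmb9 and Ifi47 of 31. That is 9.68%, against 11.1% of all measured genes at that floor. Of 533 values of single genes under the alternatives, 524 moved by less than 1 probe set SD, 9 by more, and none of a gene 1.5-fold apart changed sign. All 9 came from averaging probe sets or from leaving out _s_at, _x_at and _a_at ones. Socs3, just under 1.5-fold lower at -0.58, did change sign. It had 0.10 with probe sets averaged and 0.50 without _s_at, _x_at and _a_at ones. Lower floors and median centring could hardly change the ratio of a gene above the floor on both arrays, so the 524 say little about stability. No paired analysis was possible because each group has 1 array. Signals below the floor on both arrays leave 9 listed genes without a ratio.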

Other observations

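Isg15, the ubiquitin-like protein conjugated to others in an interferon response, is detected by a probe set that the platform annotation assigns to Isg15 and Gm9706 together. Its signal was 789 with DMSO and 778 with the ligands, a log2 ratio of -0.02, and it cannot be assigned to either gene alone. The probe set shared by Psme2, a subunit of the proteasome activator PA28, and Psme2b had 26075 with DMSO and 29016 with the ligands (0.15). The brighter of the probe sets shared by the class I gene H2-T23 and the pseudogene H2-T-ps had 5726 and 5358 (-0.10).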
